A study of Homo sapiens with 6 samples.

Results

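The MYC and MAX network is a family of DNA-binding proteins built around MAX, and its mRNAs are described here in L428 cells after inhibition of the microRNA miR-9. Its 8 genes are MYC, MAX, MXI1, MXD1, MXD4, MNT, MGA and MLX, and every probe set whose annotation holds a single gene symbol and names one of them was taken. That gave 22 of the 54675 probe sets on the array, of which 18 passed the level filter and were among the 27307 tested. The 22 probe sets read 7 of the 8 genes, with 1 probe set for MYC, 5 for MAX, 1 for MXI1, 3 for MXD1, 2 for MNT, 4 for MGA and 6 for MLX. MXD4 had 0 probe sets of its own.

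L428 is an established cell line of Hodgkin lymphoma. Cells were nucleofected with an LNA (locked nucleic acid) inhibitor of miR-9 for 3 arrays or with a scrambled LNA for 3 arrays, and total RNA was taken 9 h later in both groups. The RNA was hybridized to Affymetrix HG-U133 Plus 2.0 arrays, whose probe sets each read a stretch of mRNA. All samples come from 1 cell line, mature miR-9 was not measured here, and nothing in the labels says whether the numbered replicates were separate cultures, so p-values measure only the spread between these samples.

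MAX pairs with MYC to activate genes at DNA sites called E-boxes, and growth, ribosome production and the cell cycle depend on that dimer. MXD1, MXI1, MXD4 and MNT compete for MAX and bring SIN3 corepressors to the same sites, while MGA takes MAX into a Polycomb complex. MLX is a MAX-like protein that pairs with the glucose-sensing factors MLXIP and MLXIPL and with some of the MXD proteins. MYC activity is a common feature of B cell lymphomas, and MYC is normally silenced when B cells become plasma cells.

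The microRNA that the LNA blocks is shown with its seed, bases 2 to 8, in capitals, since the seed decides which mRNAs a microRNA pairs with. RefSeq gives the same mature sequence for 3 human loci in GRCh38.p14, MIR9-1 at chr1:156420392-156420414 on the minus strand, MIR9-2 at chr5:88666902-88666924 on the minus strand and MIR9-3 at chr15:89368032-89368054 on the plus strand.
hsa-miR-9-5p: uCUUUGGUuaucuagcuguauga

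The E-box CACGTG, the site that MYC and MAX bind together, also stands before some genes of the network. In the 250 bases before the start sites in the RefSeq table (GRCh38.p14), CACGTG was found in 3 of 12 promoters of 7 members, those of MXD4, MNT and MLX, and in 6.34% of all 35116 promoters. The motif reads the same on both strands. Promoters of MAX, MXI1, MXD1 and MGA held no CACGTG in this window, and MYC was not matched. The 3 sites are shown with 12 bases on either side and the motif in capitals, 5′ to 3′ on the gene's strand. They lie at chr4:2262330-2262359 (minus strand), chr17:2401236-2401265 (minus strand) and chr17:42567038-42567067 (plus strand), with the first base of the motif 238, 193 and 50 bases before the start.
MXD4: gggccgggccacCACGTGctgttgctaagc
MNT: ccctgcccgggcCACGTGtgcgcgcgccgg
MLX: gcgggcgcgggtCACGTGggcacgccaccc

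The arrays matched their label as far as marker genes show. All 8 Hodgkin markers were bright, between 9.46 (FUT4) and 12.70 (CCL17) on the log2 scale, while 5 B cell genes, 8 T and NK cell genes and 4 monocyte genes lay between 6.57 and 7.36, near the array medians of 7.10 to 7.15. Among 6 fibroblast and endothelial genes the highest level was 8.16 (COL1A1). Scrambled LNA replicate 1 stood apart: the 90th percentile of its values was 9.28, against 9.53 to 9.57 on the miR-9 LNA arrays and 9.45 and 9.47 on the other scrambled arrays. Its added dap control RNA was at 10.05, against 8.16 to 8.55 on the miR-9 LNA arrays and 7.97 and 8.10 on the other scrambled arrays. The 3′-minus-5′ difference of the ACTB control, a sign of RNA quality, was 0.87, 0.40 and 0.22 on miR-9 LNA replicates 1, 2 and 3, and 0.58, 0.36 and 0.24 on the scrambled arrays. The part of these features in the differences below was not tested.

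In the deposited values, most network mRNAs lay slightly higher with the miR-9 LNA, and no member passed the test. In bulk RNA a small difference in every cell and a larger one in some cells cannot be told apart. At the brightest probe set of each gene the log2 differences, miR-9 LNA minus scrambled LNA, ran from 0.10 for MXD1 to 0.22 for MYC, with a median of 0.17 over 7 genes, or 0.08 when all tested probe sets of a gene were averaged. The median over the brightest probe sets alone of all 12367 tested genes was 0.08, of which 70.0% were above 0. After quantile normalization, which gives each array the same spread of values, the median of the 7 genes was 0.03, with 5 above 0 and 2 below, and 49.6% of all tested genes were above 0. Of the 18 tested network probe sets 10 were then above 0, against 51.5% of all tested. Median centring, which gives each array the same median, instead put the median of the 7 genes at 0.19.

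None of the 18 tested network probe sets passed (0 at an adjusted p under 0.05 in limma, and likewise 0% of all tested probe sets). Differences were above 0 at 15 and below 0 at 3, where 66.9% of all tested probe sets were above 0. The lowest p belonged to MXI1, the single network probe set at an unadjusted limma p under 0.05, a mark reached by 13.8% of all tested probe sets with a positive difference and by 0.626% with a negative one. The lowest miR-9 LNA array exceeded the highest scrambled array at 5 of 18 network probe sets, against 18.1% of all tested, and the reverse held at 0 of 18, against 3.97%. Leaving out scrambled replicate 1, 2 of 18 network probe sets reached an unadjusted limma p under 0.05, MNT 204206_at higher and MGA 235409_at lower, against 10.0% of all tested probe sets higher and 3.13% lower. When same-numbered arrays were compared through a replicate block, 3 of 18 network probe sets (MYC, MXI1 and MLX 213708_s_at) reached an unadjusted limma p under 0.05, where 21.8% of all tested probe sets did so in the higher direction, and 0 passed after adjustment.

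**Figure D1:**
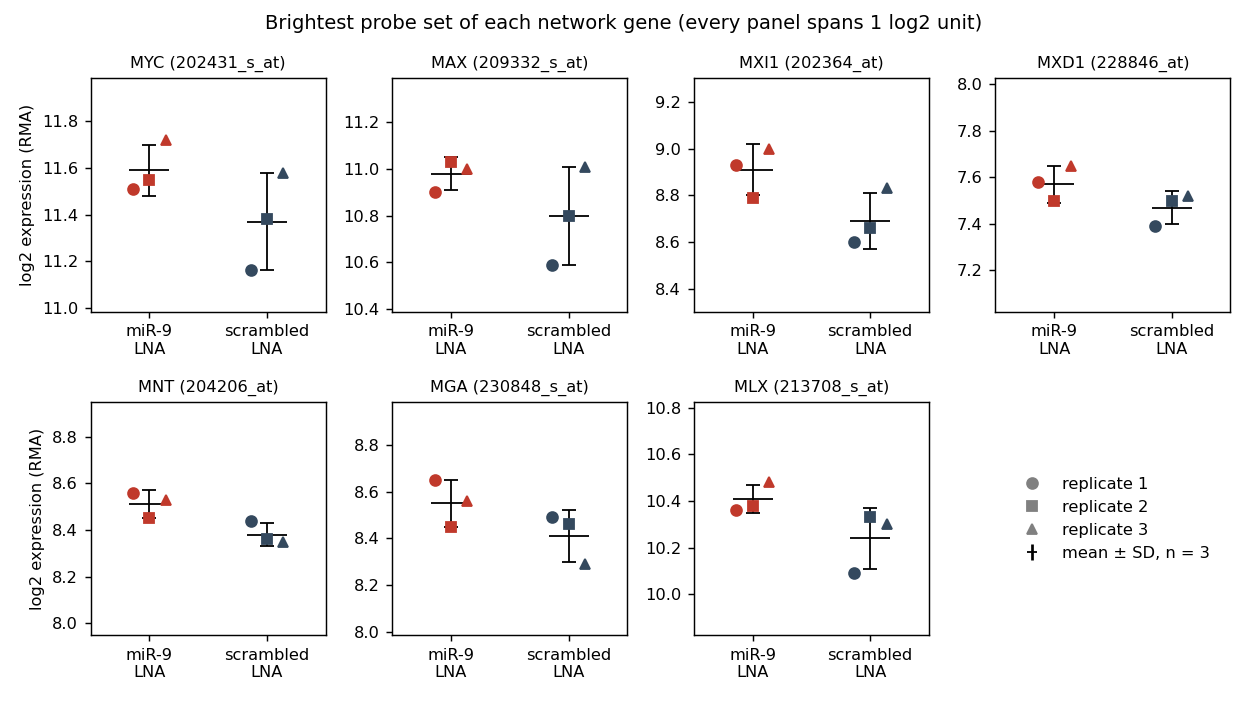
Log2 RMA expression of the brightest probe set of each of 7 network genes on the 3 miR-9 LNA arrays (left, red) and the 3 scrambled LNA arrays (right, dark). Marker shapes give the replicate number and bars the mean ± SD (n = 3), and the groups are apart for MNT and MLX and overlap for the other genes.

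MYC, the activating partner of MAX, had a higher mean with the miR-9 LNA, and the groups overlapped. At 202431_s_at MYC was at 11.51, 11.55 and 11.72 on the miR-9 LNA arrays and at 11.16, 11.38 and 11.58 on the scrambled LNA arrays. Scrambled replicate 1 was the lowest of the 6 and miR-9 LNA replicate 3 the highest, and scrambled replicate 3 lay above the lower pair of miR-9 LNA arrays. The group means were 11.59 ± 0.11 and 11.37 ± 0.21 (SD, n = 3 each), a log2 difference of 0.22 ± 0.11 (SE), or 1.16-fold (limma adjusted p = 0.398, 95% interval -0.04 to 0.48). Within same-numbered arrays the MYC difference was 0.35, 0.18 and 0.14. All 3 pairs thus lay in the higher direction, as for 40.2% of all tested probe sets (adjusted p = 0.160 in limma with the replicate block).

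The size of the MYC difference moved with the arrays used. Without scrambled replicate 1 it was 0.12 (limma unadjusted p = 0.253), and without scrambled replicate 3 it was 0.32. After quantile normalization it was 0.03, and after median centring 0.25. Among the brightest quintile of the tested probe sets, whose median difference was 0.187, 65.2% had a lower difference than MYC before quantile normalization and 56.9% afterwards.

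MAX, the shared partner, was read by 5 tested probe sets that did not move alike. The brightest, 209332_s_at, was at 10.90, 11.03 and 11.00 with the miR-9 LNA and at 10.59, 10.80 and 11.01 with the scrambled LNA. Scrambled replicate 1 was again the lowest, and scrambled replicate 3 lay above the mean of the miR-9 LNA arrays. The MAX difference there was 0.18 ± 0.11 (limma adjusted p = 0.458), or 0.07 without scrambled replicate 1 and -0.003 after quantile normalization.

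A dimmer MAX probe set, 214108_at, kept the groups apart. It was at 7.48, 7.41 and 7.55 with the miR-9 LNA and at 7.29, 7.36 and 7.39 with the scrambled LNA, and the difference was 0.13 ± 0.06 (limma adjusted p = 0.392). The groups were also apart here after quantile normalization, where the difference was 0.14 and 5.98% of all tested probe sets were apart in this direction.

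The remaining MAX probe sets gave values of both signs. At 209331_s_at the MAX difference was 0.15 ± 0.11, and at 208403_x_at 0.04 ± 0.17 (limma adjusted p = 0.543 and 0.920). The difference at 209331_s_at was 0.03 without scrambled replicate 1 and 0.001 after quantile normalization. At 210734_x_at MAX was at 8.01, 8.33 and 8.47 with the miR-9 LNA and at 8.0, 8.50 and 8.65 with the scrambled LNA, so that the difference was -0.11 ± 0.18 (limma adjusted p = 0.778). Replicate 1 was the lowest in each group, and the scrambled arrays spread over a wider range than the difference. Without scrambled replicate 1 the differences were -0.31 at 210734_x_at (limma unadjusted p = 0.0593) and -0.14 at 208403_x_at. In the Affymetrix naming, the suffix _x_at marks probe sets whose probes may also match other transcripts.

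MXI1, a SIN3-recruiting repressor that competes with MYC for MAX, was at 8.93, 8.79 and 9.00 with the miR-9 LNA and at 8.60, 8.66 and 8.83 with the scrambled LNA at 202364_at. The groups overlapped because scrambled replicate 3 lay above miR-9 LNA replicate 2. The difference was 0.21 ± 0.09, or 1.16-fold (limma unadjusted p = 0.0407, adjusted p = 0.333, 95% interval 0.01 to 0.41). It was 0.34, 0.13 and 0.17 within same-numbered arrays, 0.16 without scrambled replicate 1 (limma unadjusted p = 0.104) and 0.09 after quantile normalization. In its quintile of the tested probe sets by level, 76.3% had a lower difference than MXI1, and 77.0% after quantile normalization.

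MXD1, the repressor that rises as many blood cells differentiate, lay near the level filter at all 3 probe sets. At 228846_at it was at 7.58, 7.50 and 7.65 with the miR-9 LNA and at 7.39, 7.50 and 7.52 with the scrambled LNA, so that the difference was 0.10 ± 0.07 (limma adjusted p = 0.495), and it was also 0.10 after quantile normalization. The groups overlapped, and the pair of replicate 2 arrays was level. The other MXD1 probe sets differed by 0.03 ± 0.06 at 226275_at and by -0.06 ± 0.08 at 206877_at, which lay below the filter.

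MXD4, a further SIN3-recruiting repressor, has no value here. Probe sets 210778_s_at, 212346_s_at and 212347_x_at are annotated to MXD4 together with the microRNA gene MIR4800 and were left out of every count. They differed by -0.06 ± 0.06, -0.08 ± 0.08 and -0.06 ± 0.08 (limma adjusted p = 0.634, 0.633 and 0.735).

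MNT, the repressor most widely expressed among the MAX partners, had separate groups. At 204206_at it was at 8.56, 8.45 and 8.53 with the miR-9 LNA and at 8.44, 8.36 and 8.35 with the scrambled LNA. The lowest miR-9 LNA array lay just above the highest scrambled array. The difference was 0.13 ± 0.06, or 1.09-fold (limma adjusted p = 0.386), with p = 0.1 by exact permutation (two-sided), the floor for 3 against 3 arrays. At the brightest probe sets of the other genes this p was 0.1 for MLX, 0.2 for MXI1 and MXD1, and 0.3 for MYC, MAX and MGA. Unlike that of MYC, the MNT difference did not shrink without scrambled replicate 1, where it was 0.15 (limma unadjusted p = 0.0411, adjusted p = 0.362). It was 0.02 after quantile normalization, and the groups then overlapped. The second MNT probe set, 236749_at, lay below the filter and differed by -0.03 ± 0.06.

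**Figure D2:**
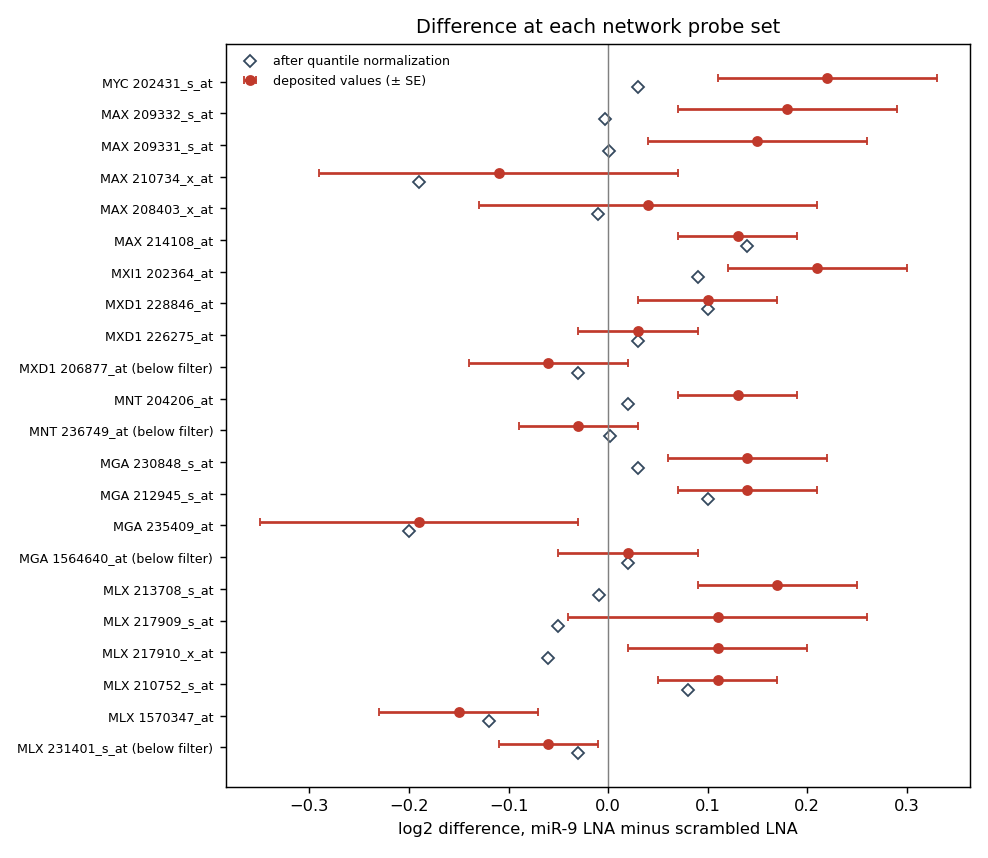
Log2 difference, miR-9 LNA minus scrambled LNA, at each of the 22 network probe sets, with deposited values in red (bars ± SE) and quantile-normalized values as open diamonds. The deposited differences run from -0.19 (MGA 235409_at) to 0.22 (MYC), and those of MYC, MNT and the bright MAX and MLX probe sets lie close to 0 after quantile normalization.

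MGA, the large MAX partner that joins a Polycomb complex, gave differences of both signs. At 230848_s_at MGA was at 8.65, 8.45 and 8.56 with the miR-9 LNA and at 8.49, 8.46 and 8.29 with the scrambled LNA, so that the difference was 0.14 ± 0.08 (limma adjusted p = 0.452). At 212945_s_at it was at 7.88, 7.86 and 7.91 with the miR-9 LNA and at 7.67, 7.84 and 7.73 with the scrambled LNA, so that the difference was 0.14 ± 0.07 (limma adjusted p = 0.379). The groups overlapped at the first and were apart at the second, where they stayed apart after quantile normalization with a difference of 0.10.

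MGA probe set 235409_at had a negative difference whose size moved with the arrays used. It was at 7.82, 7.62 and 7.66 with the miR-9 LNA and at 7.50, 8.02 and 8.15 with the scrambled LNA. Scrambled replicate 1 was the lowest of the 6 arrays and the other scrambled arrays were the highest. The difference was -0.19 ± 0.16 (limma adjusted p = 0.586) with all arrays. Without scrambled replicate 1 it was -0.38 (limma unadjusted p = 0.00260, the lowest of the network in that fit, adjusted p = 0.3). It was -0.12 without scrambled replicate 2 and -0.06 without scrambled replicate 3. In its quintile by level 1.7% of probe sets had a lower difference, and 2.9% after quantile normalization, where the difference was -0.20. The fourth MGA probe set, 1564640_at, lay below the filter and differed by 0.02 ± 0.07.

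MLX, which forms the parallel branch of the network, was read by 5 tested probe sets, of which 4 lay higher and 1 lower. At 213708_s_at MLX was at 10.36, 10.38 and 10.48 with the miR-9 LNA and at 10.09, 10.33 and 10.30 with the scrambled LNA. The groups were apart, with scrambled replicate 1 well below the rest. The difference was 0.17 ± 0.08, or 1.12-fold (limma adjusted p = 0.379, exact two-sided permutation p = 0.1). It was 0.09 without scrambled replicate 1 and -0.009 after quantile normalization.

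The groups were also apart at the dimmer MLX probe set 210752_s_at, at 7.82, 7.82 and 7.75 with the miR-9 LNA and at 7.66, 7.65 and 7.74 with the scrambled LNA. Its difference was 0.11 ± 0.06 (limma adjusted p = 0.410), or 0.08 after quantile normalization, when the groups overlapped. MLX probe sets 217909_s_at and 217910_x_at each differed by 0.11 with all arrays, and by -0.05 and -0.06 after quantile normalization.

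The dimmest tested MLX probe set, 1570347_at, had a negative difference in all 3 same-numbered pairs. It was at 6.96, 7.07 and 7.19 with the miR-9 LNA and at 7.29, 7.14 and 7.24 with the scrambled LNA. Replicate 3 of the miR-9 LNA group lay above scrambled replicate 2, so the groups overlapped. The difference was -0.15 ± 0.08 (limma adjusted p = 0.412) and -0.12 after quantile normalization. The sixth MLX probe set, 231401_s_at, lay below the filter and differed by -0.06 ± 0.05.

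Probe sets of the same gene thus differed in sign for MAX, MGA and MLX. For each of these genes the brightest probe set was set against the tested probe set of opposite sign on the same array, a choice made after the values were seen, with no test. For MLX, 213708_s_at minus 1570347_at was 3.40, 3.31 and 3.29 with the miR-9 LNA and 2.81, 3.19 and 3.07 with the scrambled LNA. The groups were apart in the deposited values, with a mean difference of 0.32, and overlapped after quantile normalization, where it was 0.11. These MLX probe sets lie in the brightest and the dimmest quintile of all tested probe sets by level, whose median differences were 0.187 and -0.027. For MAX, 209332_s_at minus 210734_x_at was 2.90, 2.70 and 2.54 with the miR-9 LNA and 2.59, 2.30 and 2.36 with the scrambled LNA. For MGA, 230848_s_at minus 235409_at was 0.83, 0.83 and 0.90 with the miR-9 LNA and 0.99, 0.44 and 0.14 with the scrambled LNA. The groups overlapped for MAX and MGA, in each case through scrambled replicate 1, and the mean differences of 0.29 and 0.33 were 0.19 and 0.24 after quantile normalization. The transcripts that each probe set reads were not looked up here.

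**Figure D3:**
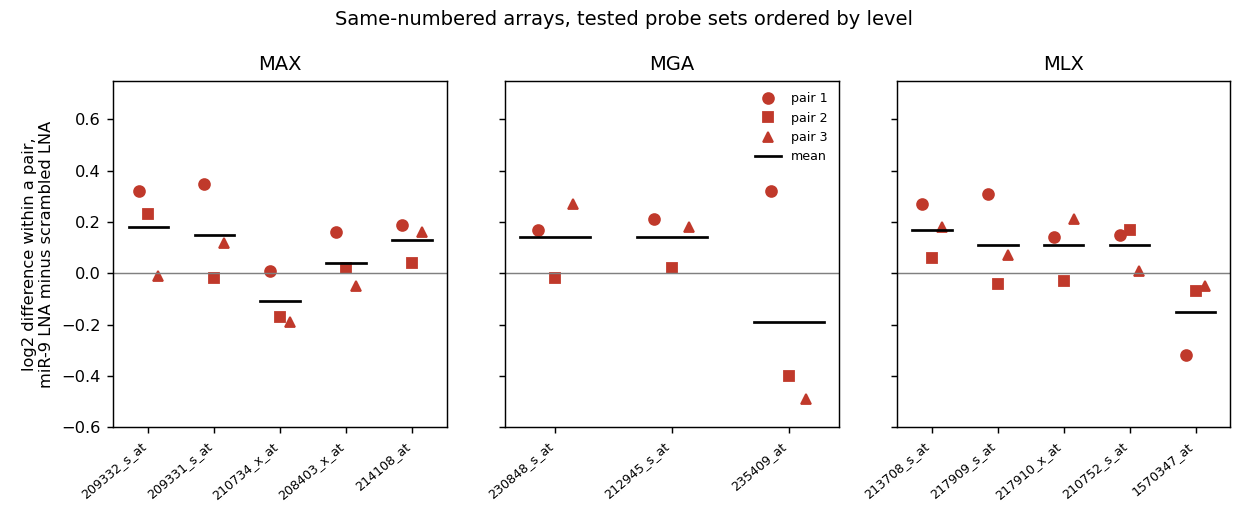
Log2 difference within same-numbered arrays, miR-9 LNA minus scrambled LNA, for the tested probe sets of MAX, MGA and MLX, ordered by level from left to right, with the mean as a line. The pairs of MLX 1570347_at all lie below 0, and those of MGA 235409_at spread from -0.49 to 0.32.

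The differences of the network probe sets were set beside those of all tested probe sets of like level. By quintiles of the tested probe sets from dimmest to brightest, the median difference was -0.027, -0.005, 0.06, 0.142 and 0.187, and the network probe sets in these quintiles numbered 1, 3, 5, 4 and 5. In the brightest quintile the network probe sets of MYC, MAX and MLX had differences of 0.11 to 0.22, inside the range from 0.06 to 0.29 that held the middle 80% of that quintile. MGA 235409_at, MAX 210734_x_at and MLX 1570347_at fell below the 10th percentile of their quintiles, at -0.08, -0.08 and -0.11, and MAX 214108_at lay just above the 90th percentile of its own, 0.12.

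**Figure D4:**
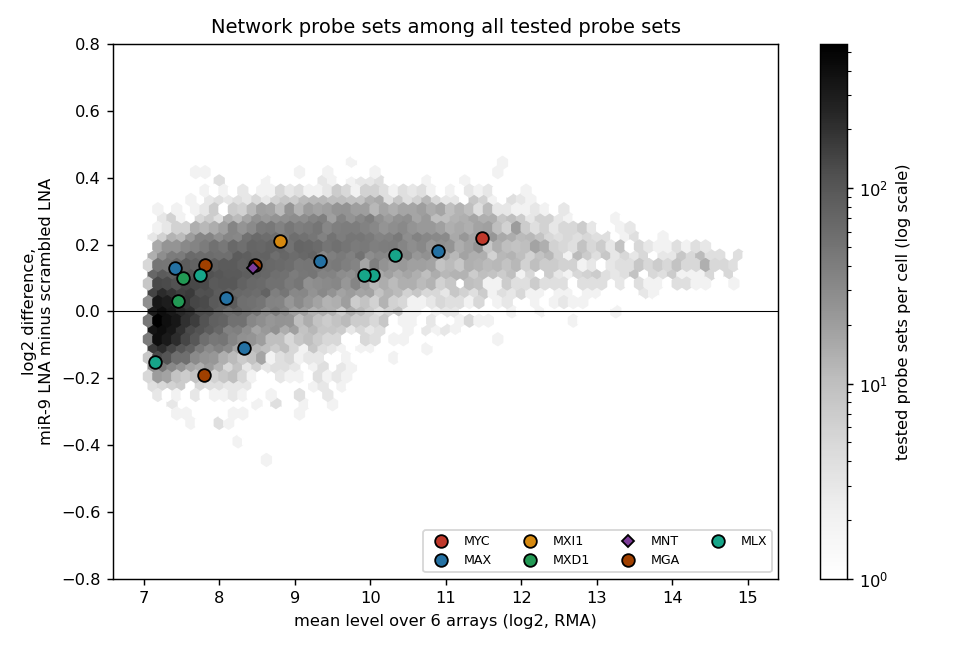
Log2 difference, miR-9 LNA minus scrambled LNA, against the mean level over 6 arrays for all 27307 tested probe sets (grey, darker cells hold more) and the 18 tested network probe sets (coloured by gene). The grey cloud climbs with level, and the network probe sets lie mostly within it, with MGA 235409_at at -0.19 near its lower edge.

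The 5 genes whose profile was most like that of MYC by Pearson's r over the 6 arrays were G3BP2 (0.999), LRPPRC (0.9979), PTTG1IP (0.9975), SMIM15 (0.9974) and TRIM4 (0.9969). Within the network, r with MYC over the same arrays ran from -0.31 (MLX 1570347_at) to 0.94 (MAX 209332_s_at and 209331_s_at), with 0.30 for MNT and 0.02 for MGA 230848_s_at. These values are descriptions over 6 arrays, of which scrambled replicate 1, where MYC was lowest, stood apart.

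None of the other 5 tested genes of the MAX network passed the test. MYCN and MYCL, relatives of MYC, differed by -0.03 ± 0.06 and 0.06 ± 0.10, the repressor MXD3 by -0.04 ± 0.07, and the MLX partners MLXIP and MLXIPL by 0.04 ± 0.11 and -0.02 ± 0.10 (limma adjusted p = 0.829, 0.792, 0.760, 0.885 and 0.926). Their median was -0.02 over 5 genes, with 2 above 0 and 3 below. After quantile normalization it was -0.01, with 0 above 0 and 5 below. MYCN and MLXIPL were dim, at 7.30 and 7.24, and the groups overlapped for all 5 after quantile normalization.

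Genes that work with the network did not pass the test either. In the lists that follow, 0 genes passed a limma adjusted p under 0.05, and counts at an unadjusted p under 0.05 are read against 17.4% of all 12367 tested genes with a positive difference and 0.598% with a negative one. MYC cofactors had a median difference of 0.10 over 13 genes, with 1 at that mark, the helicase RUVBL1 (0.20 ± 0.06), followed by the scaffold TRRAP (0.19 ± 0.09). SIN3 and NCOR corepressors had a median of 0.15 over 12 genes, with 2 at that mark, SUDS3 (0.23 ± 0.09) and SIN3A (0.19 ± 0.07). Regulators of MYC stability and its repression partner ZBTB17 had a median of 0.11 over 11 genes, with 4 at that mark, led by the ubiquitin ligase subunit SKP2 (0.19 ± 0.06) and the kinase GSK3B (0.22 ± 0.08). Differences were above 0 for 9 of 13 cofactors, 9 of 12 corepressors and 11 of 11 stability regulators. The share over all tested genes was 70.0%. The shares of 17.4% and 70.0% cover all levels, while the median difference rose with level. In the brightest quintile of tested probe sets the 10th percentile of the difference was 0.06. No share of like level was computed for the lists here and below. After quantile normalization the counts above 0 were 6, 5 and 6, and the medians were -0.10, -0.02 and 0.003. RUVBL1 then differed by 0.01, SUDS3 by 0.20 and SKP2 by 0.03. The counts at an unadjusted limma p under 0.05 were then 0, 1 and 0 higher and 1, 1 and 0 lower. Of all 12367 tested genes, 233 higher and 289 lower reached that mark.

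The 10 tested genes of the Polycomb complex that holds MGA had a median of 0.20. All 10 were above 0 and 4 were at an unadjusted p under 0.05, led by YAF2 and PCGF6. YAF2 was at 8.68, 8.52 and 8.66 with the miR-9 LNA and at 8.33, 8.42 and 8.43 with the scrambled LNA, so that the difference was 0.23 ± 0.07 (limma adjusted p = 0.296). PCGF6, the subunit that defines this complex, differed by 0.22 ± 0.07. The YAF2 groups were apart, also after quantile normalization, where YAF2 differed by 0.12 and PCGF6 by 0.07. The median of the complex was 0.05 after quantile normalization, with 7 above 0 and 3 below, and 0.13 without scrambled replicate 1. Of its 10 tested genes, 0 were at an unadjusted limma p under 0.05 after quantile normalization.

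Genes that MYC is known to activate and genes it is known to repress gave medians of 0.16 and 0.04, or 0.08 and -0.04 without scrambled replicate 1. Of 50 activated genes, 47 were above 0 and 10 reached an unadjusted p under 0.05, led by the phosphatase CDC25A (0.20 ± 0.06) and the nucleolar protein NOLC1 (0.32 ± 0.09). After quantile normalization 25 were above 0 and 25 below, with a median of 0.001. Of 12 repressed genes, 8 were above 0 and 0 reached that mark, and those of lowest p were the integrin ITGB1 (0.22 ± 0.09) and the polyamine enzyme SAT1 (0.26 ± 0.13). Their median after quantile normalization was -0.02, and the difference between these lists was not tested. TXNIP, a glucose-induced target of MLX and its partners and the only tested gene of that list, was at 8.93, 8.70 and 9.46 with the miR-9 LNA and at 8.67, 8.60 and 9.33 with the scrambled LNA, so that the difference was 0.17 ± 0.24 (limma adjusted p = 0.758). Replicate 3 was high in both groups, and all 3 TXNIP pairs lay in the higher direction, as for 40.2% of all tested probe sets. The TXNIP difference was -0.05 without miR-9 LNA replicate 3 and 0.40 without scrambled replicate 3.

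Regulators of MYC transcription and proteins that bind MYC mRNA each had a median of 0.19. Among 17 transcription regulators 14 were above 0 and 4 reached an unadjusted p under 0.05, led by CTNNB1, the beta-catenin gene (0.42 ± 0.07), and the chromatin organizer CTCF (0.30 ± 0.06). Among 15 mRNA-binding proteins 14 were above 0 and 5 reached that mark, led by HNRNPU (0.22 ± 0.06) and IGF2BP3 (0.27 ± 0.08). Without scrambled replicate 1 the medians were 0.14 and 0.10. After quantile normalization they were 0.05 and 0.03, and the differences were 0.24 for CTNNB1, 0.12 for CTCF, 0.03 for HNRNPU and 0.13 for IGF2BP3. An unadjusted limma p under 0.05 was then reached by 1 transcription regulator higher and 1 lower. Among the mRNA-binding proteins it was reached by 0 higher and 1 lower.

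**Figure D5:**
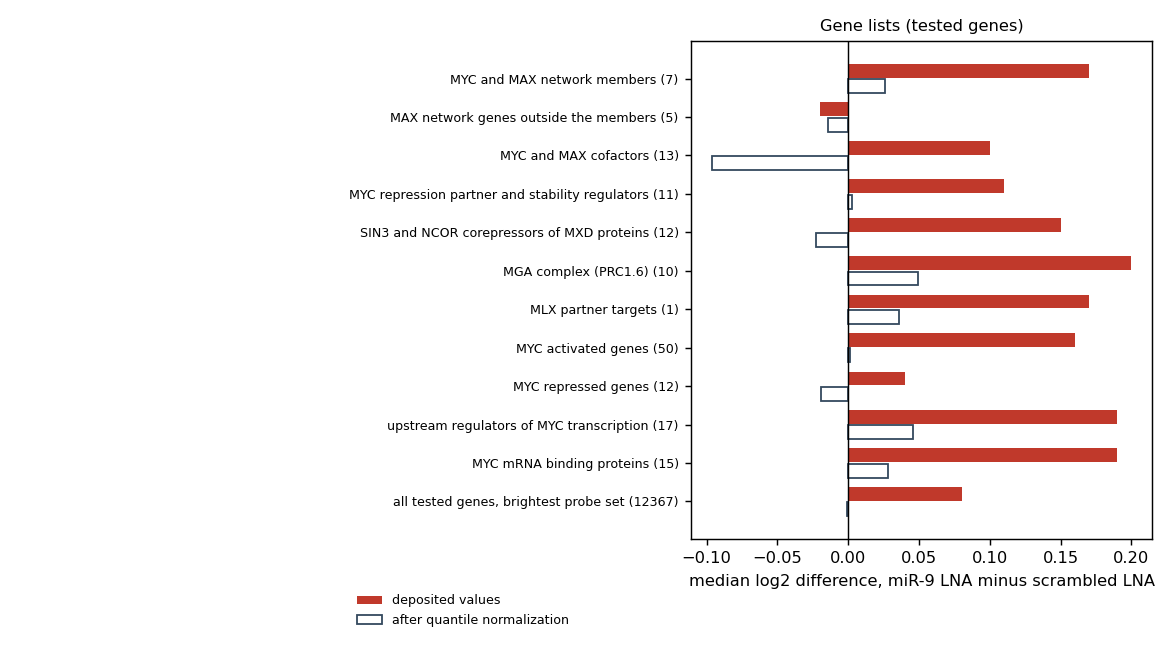
Median log2 difference, miR-9 LNA minus scrambled LNA, over the tested genes of each list (number in brackets), on the brightest probe set per gene, with deposited values in red and quantile-normalized values open. In the deposited values the network members are at 0.17 and all tested genes at 0.08, and after quantile normalization every list lies between -0.10 and 0.05.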

How the data were processed

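The deposited values are log2 expression per probe set; the submitters' processing notes name affy and RMA, without versions. No value lies much under 6, which can shrink the differences of dim genes. After removal of 62 control probe sets, the 27307 with a mean at or above the median (7.11) were tested with limma 3.58.1 in R 4.3.3 (two-sided). A call needed a Benjamini-Hochberg adjusted p under 0.05. Values of dimmer probe sets came from a limma fit of all of them.

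Symbols came from the platform annotation, where 41091 probe sets had 1, 1801 several and 11721 none. Lists used the brightest tested probe set per gene, without a test. Named genes are all network probe sets, the tested network genes outside the members, the 2 genes of lowest p per list and the 5 most like MYC. Members and lists were chosen with earlier results of these data known.

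Replicate numbers come from the labels. Deviations from group means correlated at r = 0.231, 0.193 and 0.634 between same-numbered arrays and at -0.429 to 0.168 between the others. Only pair 3 stood well apart, and the highest r between differently numbered arrays, 0.168, lay near those of pairs 1 and 2. Deviations from a mean of 3 arrays sum to 0 in each group, so these r values depend on each other. They cannot decide whether same-numbered arrays belong together, and the replicate block and the pairs rest on the label numbers. In simulated arrays limma called 52.5% of probe sets changed by a log2 of 0.5 and 12 of 26907 unchanged ones. Alternatives covered filter, normalization, variance model, replicate block and leaving out each array. Figures used matplotlib 3.10.9.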

Additional observations from a re-analysis of the deposited data

How the results depend on the processing

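Network probe sets past the threshold numbered 0 under every alternative run, and limma gave 0 over all tested probe sets, with 1243 to 6218 at an unadjusted p under 0.05 outside the fits that leave out an array. The replicate block changed no adjusted call. Each block held an array of each group, so the block could not change any difference, and the network median stayed at 0.17. Leaving out each array in turn, the MYC difference ranged from 0.12 to 0.32 and the network median from 0.12 to 0.20. The network median was 0.03 after quantile normalization, 0.19 after median centring and 0.08 on the mean of all tested probe sets of a gene. Differences changed sign after quantile normalization for MAX 209332_s_at (-0.0029) and 208403_x_at (-0.01) and for MLX 213708_s_at (-0.0093), 217909_s_at (-0.05) and 217910_x_at (-0.06). MAX 208403_x_at was at -0.03 with array weights. Leaving out 1 array also changed signs, with a range from -0.31 to 0.02 for MAX 210734_x_at, from -0.14 to 0.17 for MAX 208403_x_at, from -0.0062 to 0.05 for MXD1 226275_at and from -0.05 to 0.22 for MLX 217909_s_at. The causes were not tested.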
